A study of Drosophila melanogaster with 9 samples.

Results

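miR-1-3p (dme-miR-1-3p in the deposited table), the mature product of the muscle miRNA gene mir-1, was followed in small RNA libraries made from whole midguts of adult Drosophila melanogaster of the wild-type strain Oregon-R. It is 1 of 467 miRNAs in the deposited table, of which 145 were listed above 0 in a library and 73 passed the filter on low values. It was chosen by name, with its levels in these libraries known, as a readout of RNA from visceral muscle. The 9 libraries fall into 3 groups of 3. The Pe day 3 group had received the treatment written as Pe, which the labels do not spell out, and was sampled at day 3 in flies 7 to 8 days old. The Pe day 0 group had received Pe and was sampled at day 0 in flies 4 to 5 days old, and the mock day 0 group had received sucrose and was sampled at the same day and age. The labels name no transgene or allele in any group. Since no sucrose group of the older flies is among these samples, time after Pe and age cannot be told apart in any comparison with Pe day 3. Whether replicates came from separate pools of flies is not stated, so the p-values rest on a spread between libraries that may be technical.

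miR-1 is a muscle miRNA shared by flies and vertebrates. In the fly its gene is switched on in developing mesoderm and muscle under the transcription factors Twist and Mef2, and larvae that lack it die with failing muscle. The midgut epithelium of the adult fly, made of intestinal stem cells, their progenitors, enterocytes and enteroendocrine cells, is wrapped in a sheath of circular and longitudinal visceral muscle. That muscle is known to send signals such as Wingless, Vein and Unpaired to the stem cells, and a dissected whole midgut contains it. A small RNA library of a whole midgut therefore holds miRNAs of epithelium and muscle together.

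The mir-1 hairpin (FBgn0262455) spans 91 bases of the plus strand of chromosome arm 2L, 20487441 to 20487531 in assembly BDGP6 (dm6 coordinates), within an exon of the long non-coding RNA lncRNA:CR45361 on the same strand. Its 3′ arm covers 20487496 to 20487517 and its 5′ arm 20487458 to 20487479, each 22 bases long. At higher coordinates of 2L, mir-4973 lies at 74.8 kb from it, mir-133 at 129 kb and mir-288 at 131 kb. These hairpins were looked up by name, and others nearby were not searched for. miR-133, known as a muscle miRNA of vertebrates, is thus on the same chromosome arm but far from mir-1. All listed arms of miR-4973 and miR-288 were at 0 in the 9 libraries.

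The libraries held 224873 to 1238105 miRNA reads, counted back from the deposited RPM (reads per 1000000 miRNA reads). A single miRNA, miR-956-3p, took 69.8% to 80.2% of a library, and the 5 most abundant took 92.9% to 96.2%, so every other miRNA shares a small remainder. No value above 0 was smaller than 2 reads, so that a value of 0 can stand for a single read. Pe day 0 replicate 3 stood apart through its ovary miRNAs, given with the values they touch.

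miR-1-3p was more abundant in Pe day 3 midguts than in either day 0 group, by 3.29 times in mean RPM against Pe day 0 and 3.53 times against mock, and the day 0 groups overlapped. In the Pe day 3 libraries it stood at 267, 370.4 and 382 RPM, from 231, 148 and 86 reads. In the Pe day 0 libraries it stood at 64.2, 108 and 138 RPM, from 52, 32 and 171 reads. In the mock day 0 libraries it stood at 76.3, 102 and 110.4 RPM, from 54, 37 and 55 reads. The lowest Pe day 3 library thus lay 1.94-fold above the highest Pe day 0 library and 2.42-fold above the highest mock library, while Pe day 0 and mock overlapped. In whole tissue, a change in the number of muscle cells and a change in miR-1 per cell cannot be told apart.

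Counting error was smaller than that gap. The 95% exact (Clopper-Pearson) interval of the lowest Pe day 3 library was 234 to 304 RPM, and that of the highest day 0 library, Pe day 0 replicate 3, was 118 to 160.4 RPM. These intervals cover counting error only, since PCR copies are not independent molecules. Within the Pe day 0 group the interval of replicate 1, 48.0 to 84.2 RPM, lay below that of replicate 3, so those libraries differed from each other by more than counting error. Within the Pe day 3 group the interval of replicate 1 likewise lay below those of replicate 2, 313 to 435 RPM, and replicate 3, 306 to 472 RPM. The shallowest library, Pe day 3 replicate 3, had the highest level, and the deepest, Pe day 0 replicate 3, had the highest level of its group.

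**Figure D1:**
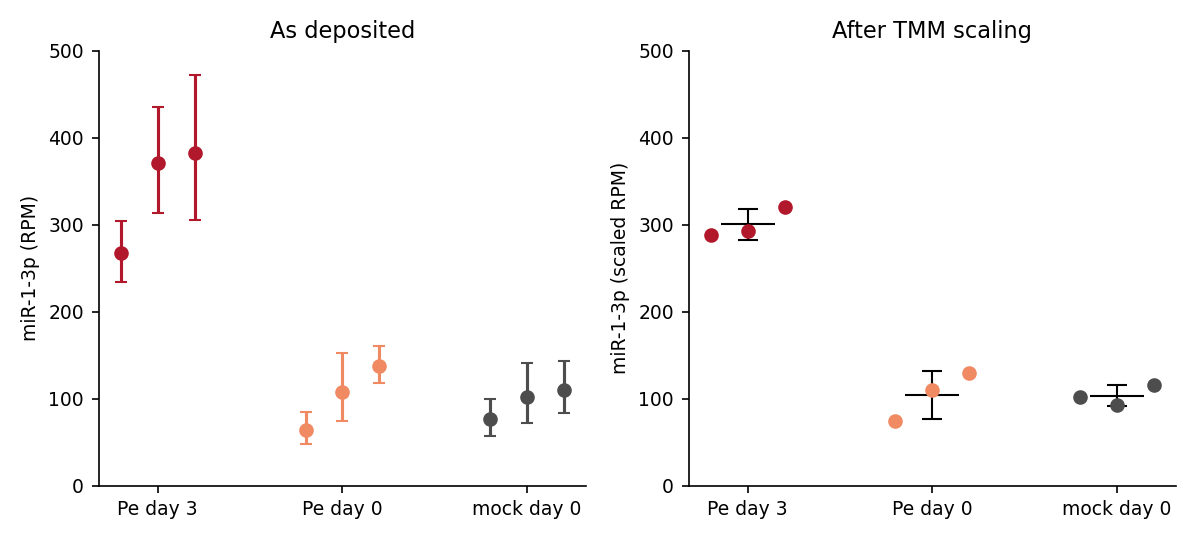
Level of miR-1-3p in each library, in deposited RPM with 95% exact counting intervals (left) and in TMM-scaled RPM with the group mean and SD (right), for Pe day 3, Pe day 0 and mock day 0 in that order. The Pe day 3 libraries stand between 267 and 382 RPM, and every library of the day 0 groups stands at or under 138 RPM.

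Scaling between libraries narrowed the Pe day 3 group. With factors from the trimmed mean of M values (TMM), a mean of log ratios weighted toward abundant miRNAs, the Pe day 3 libraries had 288, 293 and 320.3 scaled RPM. The Pe day 0 libraries then had 74.4, 109.7 and 129 scaled RPM, and the mock libraries 102, 92.7 and 116. The group means were 300.3 ± 17.5 at Pe day 3, 104 ± 27.8 at Pe day 0 and 103 ± 11.7 scaled RPM in mock (SD, n = 3 each). The coefficient of variation of the Pe day 3 group was 5.82% after scaling, against 18.6% in RPM as deposited.

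On the scale log2(scaled RPM + 4.02), where the added constant is 2 reads at the median depth, miR-1-3p averaged 8.25 ± 0.08 at Pe day 3, 6.73 ± 0.39 at Pe day 0 and 6.74 ± 0.16 in mock (SD, n = 3 each). The log2 difference was 1.52 ± 0.28 (SE from limma) for Pe day 3 against Pe day 0, or 2.87-fold, and 1.51 ± 0.28 for Pe day 3 against mock, or 2.84-fold. Between Pe day 0 and mock it was -0.02 ± 0.28. The median log2 difference over the 73 miRNAs that passed the filter was 0.01, 0.21 and 0.17 in these comparisons, so miR-1-3p stood 1.51 and 1.30 above the median at Pe day 3 and -0.18 from it at Pe day 0. The comparisons with Pe day 3 share its libraries, and so are not separate observations. No p is given for miR-1-3p, since it was chosen for this pattern. Every Pe day 3 library lay above every Pe day 0 library for 11% of the 73 miRNAs and above every mock library for 20.5%. Both shares count miR-1-3p itself.

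The other scalings kept Pe day 3 above both day 0 groups. The log2 difference between Pe day 3 and Pe day 0 was 1.55 with median-of-ratios factors, 1.73 in RPM as deposited, and 1.44 when each library was set to its reads outside the 5 most abundant miRNAs. Against mock, the same scalings gave 1.35, 1.78 and 1.31. RPM as deposited also moved the median of all 73, to 0.22 against Pe day 0 and 0.47 against mock. The difference between Pe day 0 and mock was -0.20, 0.05 and -0.13, so its sign turned in RPM as deposited. Per 10000 reads outside the 5 most abundant miRNAs, miR-1-3p made up 51.5, 51.8 and 55.3 in the Pe day 3 libraries. By the same measure it made up 13.9, 19.8 and 25.0 in the Pe day 0 libraries and 20.3, 17.8 and 25.1 in the mock libraries. The authors' deposited table gave miR-1-3p a log2 fold change of 1.37 ± 0.30 (its standard error) in the set of columns that matched Pe day 3 over mock, and of -0.18 ± 0.31 in the set that matched Pe day 0 over mock.

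**Figure D2:**
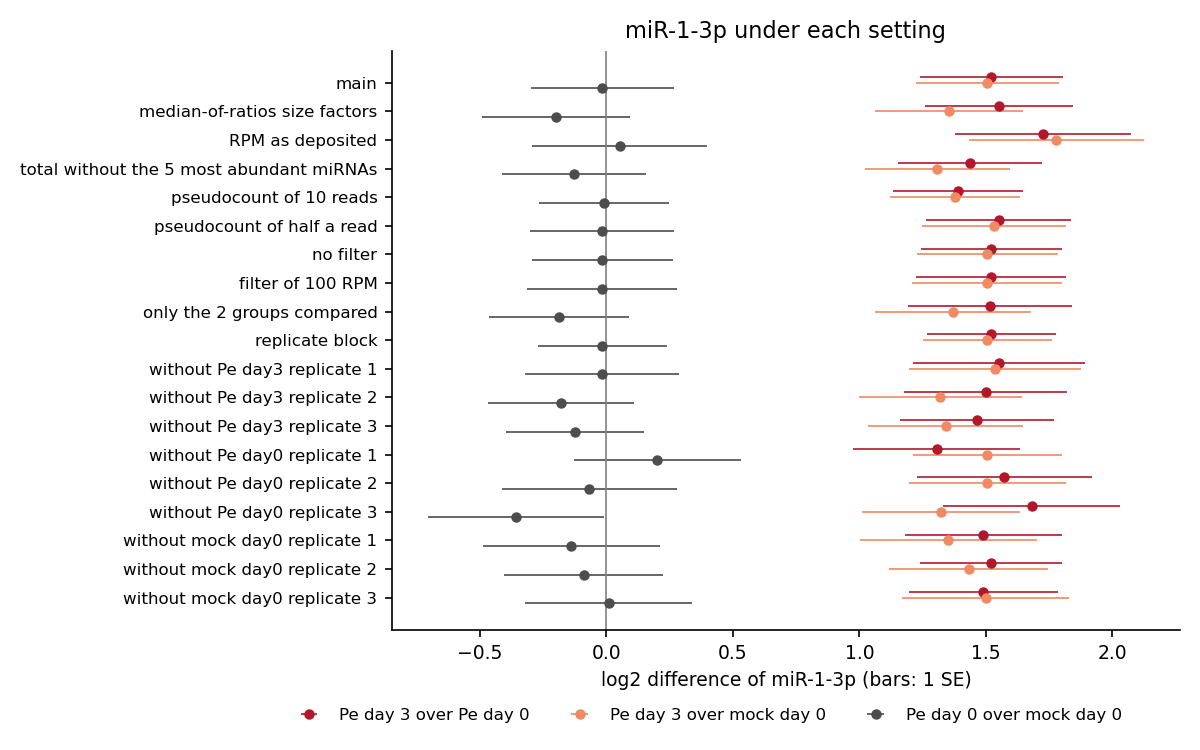
Log2 difference of miR-1-3p (x axis, with 1 SE from limma) under each processing setting (rows), for Pe day 3 over Pe day 0, Pe day 3 over mock day 0 and Pe day 0 over mock day 0. The comparisons with Pe day 3 stay between 1.31 and 1.78, and those of Pe day 0 with mock between -0.36 and 0.20.

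Pe day 0 replicate 3 bears on the day 0 values. Its ovary miRNAs, miR-989 and miR-318, summed to 122 RPM, against 0 to 27.5 RPM in the other libraries, and it had the highest miR-1-3p of its group. Without it the log2 difference was 1.68 for Pe day 3 against Pe day 0 and -0.36 ± 0.35 SE for Pe day 0 against mock. Without Pe day 0 replicate 1, the lowest library, these were 1.31 and 0.20. The sign of the difference between Pe day 0 and mock thus turned with the library left out, and the part of ovary RNA in it was not tested.

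miR-1-3p was an miRNA of middle rank. It was the 42nd of the 73 by mean scaled RPM, between miR-2a-3p/2c-3p and miR-9c-5p. By RPM it ranked from 32 to 37 in the Pe day 3 libraries, from 46 to 49 in the Pe day 0 libraries and from 43 to 47 in the mock libraries. In none of its 4 nearest neighbours in level did all Pe day 3 libraries lie above all day 0 libraries. Only 5.48% of the 73, miR-1-3p included, had that pattern, so its absence from 4 neighbours says little. miR-2a-3p/2c-3p averaged 157 ± 47.1 scaled RPM at Pe day 3, 199 ± 30.3 at Pe day 0 and 176 ± 18.3 in mock (SD, n = 3 each). miR-9c-5p averaged 122 ± 21.1, 205 ± 52.8 and 136 ± 33.5 scaled RPM in those groups. A step further, miR-995-3p averaged 173 ± 62.2, 268 ± 69.4 and 172 ± 39.2 scaled RPM, and miR-1012-5p 157 ± 37.0, 131 ± 13.9 and 134 ± 49.4.

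Replicates of miR-1-3p varied little beside those of most miRNAs. Its SD within groups was 0.25 on the log2 scale, the 16th smallest of 73, where the median was 0.34. Counting alone would give an SD of about 0.18 at its read numbers. By group, the SD was 0.08 at Pe day 3, 0.39 at Pe day 0 and 0.16 in mock, beside counting SDs of 0.13, 0.20 and 0.21. After scaling, the SD thus exceeded its counting SD only at Pe day 0. In RPM as deposited, the counting interval of Pe day 3 replicate 1 also lay below those of replicates 2 and 3.

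The muscle signal rested on the 3′ arm of miR-1 alone. The 9 libraries held 866 reads of miR-1-3p among 5402049, and the 5′ arm, miR-1-5p, was listed at 0 in every library. An arm listed at 0 is not rare: of 28 hairpins with both arms in the table and at least as many reads, 6 had their minor arm at 0 throughout. Besides miR-1 these were miR-31a, miR-33, miR-92b, miR-995 and miR-9c, named after their values were seen. miR-133-3p had 2 reads, both in Pe day 0 replicate 3, and was at 0 in the other libraries, while miR-133-5p was at 0 in all. The muscle list therefore holds no other miRNA by which the level of miR-1-3p could be checked.

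By log2 difference against Pe day 0, miR-1-3p ranked 4 of 73, behind miR-314-5p, miR-34-5p and miR-316-3p. miR-314-5p had a log2 difference of 2.02 ± 0.55 SE (limma adjusted p = 0.070) and miR-316-3p, named after its values were seen, of 1.58 ± 0.59 (limma adjusted p = 0.105). miR-34-5p, known in flies for a protective part in aged neurons, rose by 1.83 ± 0.33 (limma adjusted p = 0.00299), to 7726 ± 2369 scaled RPM at Pe day 3, against 2192 ± 729 at Pe day 0 (SD, n = 3 each). It kept its call in all 18 alternative scalings, filters and sets of libraries. In this comparison 2.74% of the 73 miRNAs were called, that is, had an adjusted p under 0.05 over the 73. That share counts miR-1-3p itself, whose place in it is no test, and of the others only miR-34-5p was called. A count of 0 in a list beside that share therefore says little. Shares and counts over all tested miRNAs, here and below, include miR-1-3p although it was chosen for its pattern. Against mock miR-1-3p ranked 5 of 73, behind log2 differences of 3.20 ± 1.13 SE for miR-308-3p, 2.75 ± 0.33 for miR-34-5p, 2.11 ± 0.44 for miR-10404-5p and 1.93 ± 0.55 for miR-314-5p, of which miR-308-3p and miR-10404-5p were named after their values were seen.

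In 4 of the 73, or 5.48%, all Pe day 3 libraries lay above all 6 day 0 libraries. These were miR-1-3p, miR-34-5p, miR-996-3p and miR-12-5p. The lowest Pe day 3 level was 2.23 times the highest day 0 level for miR-1-3p, 1.85 times for miR-34-5p, 1.18 times for miR-996-3p and 1.17 times for miR-12-5p. These ratios are a description, since miR-1-3p was chosen for its level at Pe day 3.

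The summed level of miRNAs of midgut progenitors overlapped between all groups. That list held both arms of miR-8 and bantam, which act in the progenitor lineage of the gut, of miR-275 and miR-305, the second of which acts in intestinal stem cells, and of miR-277. Its sum was 13787 to 17828 RPM at Pe day 3, 13858 to 15099 at Pe day 0 and 12647 to 16139 in mock. Against Pe day 0, 0 of its 10 arms were called in limma, where 2.74% of the 73 were called. Of the 10 arms 2 had an unadjusted p under 0.05, where 17.8% of the 73 had one, and the median log2 difference was -0.04. miR-8-5p stood at -0.80 ± 0.27 SE (limma adjusted p = 0.070), miR-277-5p at -1.25 ± 0.39 (limma adjusted p = 0.070), and miR-8-3p, the major arm, at 0.07 ± 0.21. bantam-3p stood at -0.15 ± 0.21 SE. miR-277-5p was called lower without Pe day 3 replicate 1, without Pe day 0 replicate 3 and when scaling left out the 5 most abundant miRNAs, its limma adjusted p running from 0.025 to 0.175 over the alternatives. miR-8-5p was called lower without Pe day 3 replicate 1 and, likewise, without Pe day 0 replicate 2, its limma adjusted p running from 0.035 to 0.388.

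Against mock, 2 of the 10 progenitor arms were called higher and 0 lower, where 12.3% of the 73 miRNAs were called higher and 5.48% lower. miR-275-3p rose by 0.89 ± 0.26 SE (limma adjusted p = 0.017), to 395 ± 70.2 scaled RPM at Pe day 3, against 209 ± 6.68 in mock (SD, n = 3 each). miR-305-5p rose by 0.79 ± 0.27 (limma adjusted p = 0.037), to 353 ± 44.2, against 207 ± 53.3. At Pe day 0 miR-275-3p already stood at 331 ± 53.9 scaled RPM and miR-305-5p at 305 ± 30.8 (SD, n = 3 each). From Pe day 0 to Pe day 3 their log2 differences were 0.25 ± 0.26 and 0.20 ± 0.27 SE, and neither was called. The call of miR-275-3p against mock ended without Pe day 3 replicate 2, Pe day 0 replicate 3, mock replicate 1 or mock replicate 3. It also ended in the fit of only the groups compared, with adjusted p up to 0.273 over its alternatives. The call of miR-305-5p ended in 11 of 18 alternatives, 7 of them without a library (all but mock replicate 2 and Pe day 0 replicate 2), with adjusted p up to 0.379. Neither call held when scaling left out the 5 most abundant miRNAs. For Pe day 0 against mock, 0 of the 10 arms were called in limma, where 4.11% of the 73 were called. Of the 10 arms 5 had an unadjusted p under 0.05, where 27.4% of the 73 had one. Their median log2 difference was 0.41, where that of all 73 was 0.17, and 7 of the 10 stood above 0. miR-8-5p, highest at 0.84 ± 0.27 SE, was called higher in 2 of 18 alternatives.

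The miRNAs abundant in the whole midgut held 3 arms of 12 that were called lower at Pe day 3 than in mock and 0 called higher, where 5.48% of the 73 miRNAs were called lower and 12.3% higher. Of the 12, from miR-956, miR-10, miR-184, miR-263a, miR-31a and the miR-281 copies, 0 were called against Pe day 0 in limma and 1 had an unadjusted p under 0.05, miR-184-3p at 0.60 ± 0.20 SE (limma adjusted p = 0.070), where 2.74% of the 73 were called and 17.8% had such a p. In RPM as deposited miR-184-3p was called higher. Against mock, miR-281-2-5p fell by 1.02 ± 0.27 on the log2 scale (limma adjusted p = 0.013), miR-281-1-5p fell by 1.03 ± 0.33 (limma adjusted p = 0.030) and miR-10-5p, of the Antennapedia region, fell by 0.64 ± 0.22 (limma adjusted p = 0.037). The miR-281 copies are so alike that their reads may be split between them, and their values are uncertain for that reason. RPM as deposited ended all 3 of these calls, with no lower call left among the 73. They also ended without Pe day 3 replicate 2 or mock replicate 1. The calls of miR-281-1-5p and miR-10-5p ended without mock replicate 3 and with no filter, and that of miR-10-5p without Pe day 0 replicate 1. The limma adjusted p of the 3 ran up to 0.136 over the alternatives.

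The let-7 complex, whose miRNAs rise in the adult and are known from both muscle and neurons of the fly, had 2 arms tested. let-7-5p stood at 0.52 ± 0.25 SE against Pe day 0 (limma adjusted p = 0.262) and at 0.48 ± 0.25 against mock (limma adjusted p = 0.231). miR-125-5p, processed from the same primary transcript, stood at -0.44 ± 0.31 (limma adjusted p = 0.415) and -0.60 ± 0.31 (limma adjusted p = 0.203). In the fat body and metabolism list, of miR-14, miR-33 and miR-278, 0 of 5 arms were called in limma against Pe day 0 or against mock. Of the 73 miRNAs, 2.74% and 17.8% were called in those comparisons. An unadjusted p under 0.05 was found in limma for 0 and 2 of the 5 arms, where 17.8% and 26% of the 73 had one. miR-278-3p stood highest against mock, at 0.95 ± 0.39 (limma adjusted p = 0.104).

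**Figure D3:**
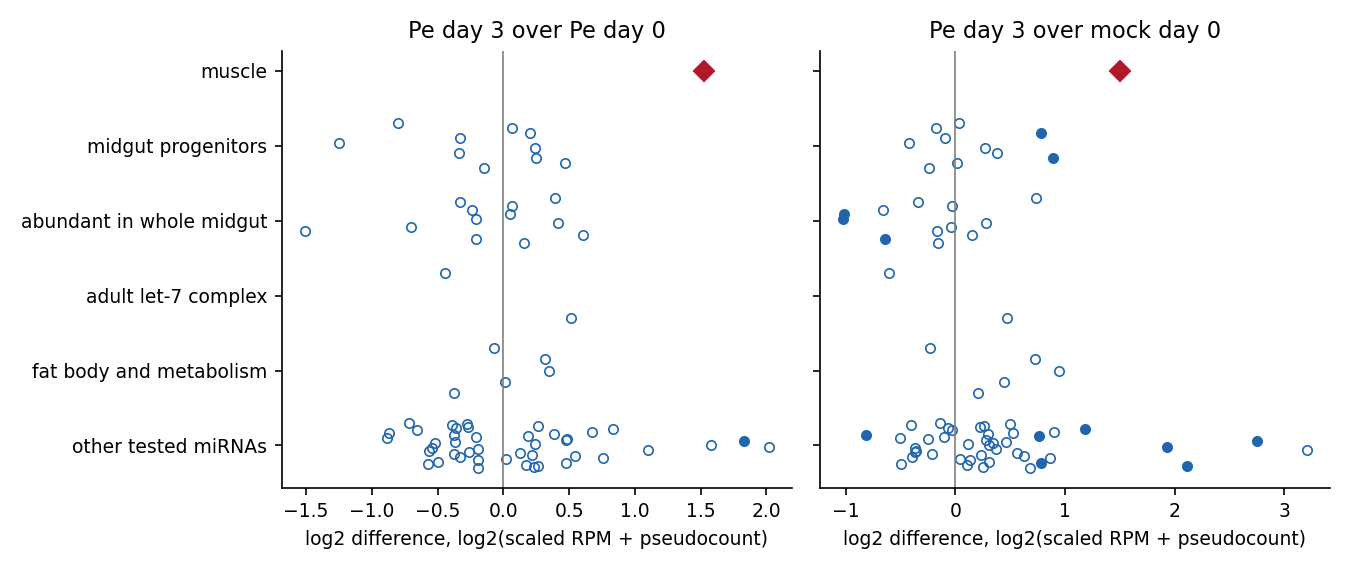
Log2 difference (x axis, on the log2(scaled RPM + 4.02) scale) of each tested miRNA arm, by list (rows), for Pe day 3 over Pe day 0 (left) and Pe day 3 over mock day 0 (right). The diamond is miR-1-3p at 1.52 and 1.51, filled circles are other arms with a limma adjusted p under 0.05, and the 29 arms of the lists all stand left of the diamond, at up to 0.60 and 0.95. The miRNAs right of the diamond are all in the row of other tested miRNAs.

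Over all lists, 29 arms besides miR-1-3p passed the filter, and none had a larger log2 difference than miR-1-3p at Pe day 3, against Pe day 0 or against mock. This is a description, since miR-1-3p was chosen for its level and the lists with earlier results known. All tested miRNAs that ranked above miR-1-3p, among them miR-34-5p and miR-314-5p, lie outside the lists. The median of the 29 was 0.01 against Pe day 0 and -0.03 against mock, where all 73 had medians of 0.01 and 0.21. In limma 0 of 29 were called against Pe day 0, beside 2.74% of the 73, and 3 had an unadjusted p under 0.05, beside 17.8% of the 73. Against mock, 5 of 29, or 17.2%, were called, beside 17.8% of the 73. For Pe day 0 against mock, 1 of 29, or 3.45%, was called, beside 4.11% of the 73 (2.74% higher and 1.37% lower), and 9 had an unadjusted p under 0.05, beside 27.4% of the 73. The call was miR-281-2-5p, which fell by 1.06 ± 0.27 (limma adjusted p = 0.021). Its call there ended in 9 of 18 alternatives, 6 of them without a library (mock replicate 1, 2 or 3, Pe day 0 replicate 2, Pe day 3 replicate 2 or 3), with adjusted p up to 0.215. With the replicate number as a block, which pairs Pe day 0 with mock libraries, its limma adjusted p was 0.060, and 0 of 29 list arms and 1 of the 73 were called.

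The lists of further tissues summed to at most 33.0 RPM in a library, except that of the ovary. The neuronal list of miR-124, miR-137, miR-210 and miR-1000 summed to 0 in all Pe day 3 libraries, to 0 to 14.8 RPM at Pe day 0 and to 7.06 to 12.05 RPM in mock, and both arms of miR-124, the defining neuronal miRNA, were at 0 throughout. The ovary list summed to 0 to 27.5 RPM at Pe day 3, 0 to 122 RPM at Pe day 0 and 0 to 11.02 RPM in mock, and the highest of these, in Pe day 0 replicate 3, was close to the 138 RPM of miR-1-3p in that library. The early embryo list summed to 0 to 23.1, 0 to 15.3 and 0 to 33.0 RPM in those groups, and the testis list to 0 in every library.

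A ratio of miR-1-3p to another miRNA of the same library needs no scaling, so it was formed with 8 denominators. Per 1000 reads of the progenitor list there were 19.4, 22.6 and 21.5 reads of miR-1-3p in the Pe day 3 libraries, against 4.63, 7.14 and 9.20 in the Pe day 0 libraries and 6.03, 6.31 and 8.20 in the mock libraries. The mean ratio at Pe day 3 was 3.02 times that at Pe day 0 and 3.09 times that in mock. Over bantam-3p alone, those factors were 3.18 and 3.45, and over miR-8-3p alone 2.75 and 3.27. Over the fat body and metabolism list they were 3.56 and 2.49, and over miR-956-3p 3.59 and 3.69.

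The factors were smallest over let-7-5p, at 2.09 and 2.04. Per 1000 reads of let-7-5p there were 415, 379 and 688 reads of miR-1-3p in the Pe day 3 libraries, against 178, 241 and 290.3 in the Pe day 0 libraries and 225, 149.8 and 353 in the mock libraries. The lowest Pe day 3 ratio was 1.08 times the highest day 0 ratio there, and 1.44 to 2.11 times with the other denominators. All Pe day 3 libraries thus lay above all day 0 libraries with all 8 denominators, which share the miR-1-3p reads in the numerator. The denominators overlap as well. miR-8-3p and bantam-3p belong to the progenitor list, let-7-5p to the let-7 complex and miR-956-3p to the list abundant in the whole midgut, which were denominators too.

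**Figure D4:**
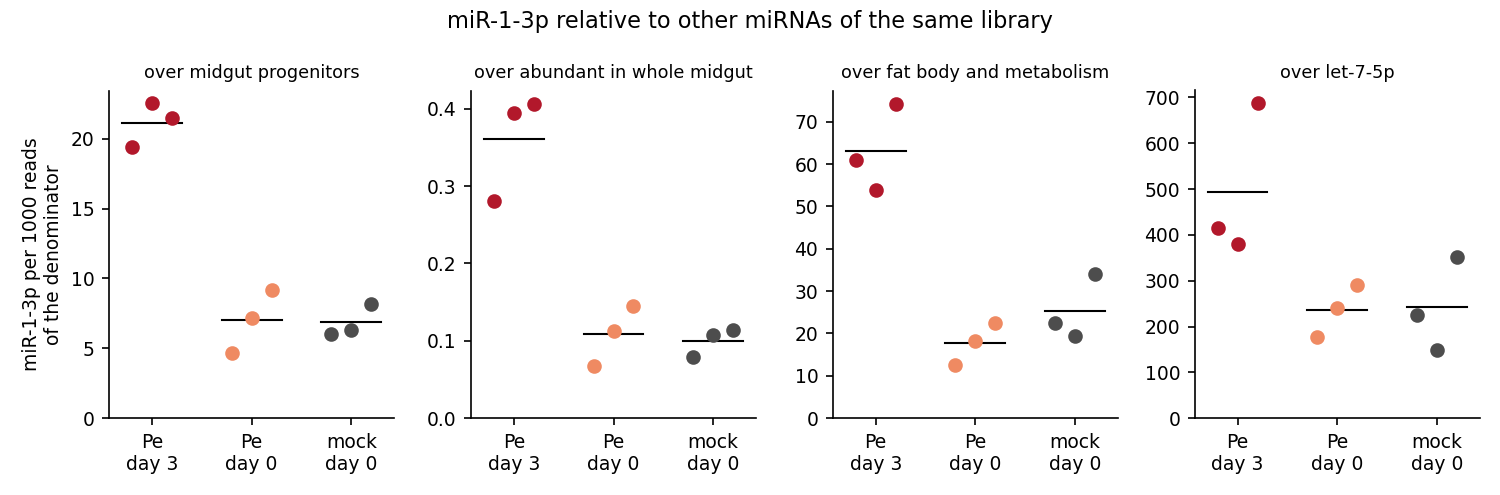
Reads of miR-1-3p per 1000 reads of 3 lists and of let-7-5p (y axes) in each library, for Pe day 3, Pe day 0 and mock day 0 in that order, with a line at the group mean. The Pe day 3 points lie at 19.4 to 22.6 over the progenitor list, where the day 0 points lie at 4.63 to 9.20, and come closest to the day 0 points over let-7-5p.

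The miRNAs most like miR-1-3p over the 9 libraries were found by Pearson's r on the log2 scale, as a description with no test, because the libraries share their groups and their scaling. miR-12-5p came first (r = 0.88, Spearman's rho = 0.87), followed by miR-34-5p (0.81, 0.62), miR-314-5p (0.77, 0.50), miR-375-3p (0.72, 0.63) and miR-996-3p (0.71, 0.47). The Pe day 3 libraries stand apart from the rest, and over the 6 day 0 libraries alone r was 0.50 for miR-12-5p, -0.44 for miR-34-5p, -0.31 for miR-314-5p, -0.21 for miR-375-3p and -0.52 for miR-996-3p. With group means taken out, r over the 9 libraries was 0.62 for miR-12-5p and -0.56 to -0.04 for the other 4, so for those 4 the likeness lay between the groups and not within them.

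miR-12-5p had 855, 698 and 793 scaled RPM in the Pe day 3 libraries, against 492, 593 and 594 in the Pe day 0 libraries and 394, 441 and 533 in the mock libraries. All Pe day 3 libraries lay above all day 0 libraries, by a smaller factor than for miR-1-3p. miR-375-3p had 660.5, 704 and 890.04 scaled RPM at Pe day 3, against 529, 535 and 536 at Pe day 0 and 602, 699 and 544 in mock, where Pe day 3 and mock overlapped. Farthest from miR-1-3p were miR-958-5p (r = -0.77), miR-125-5p (-0.76) and miR-11-5p (-0.74). miR-125-5p averaged 63.3 ± 6.80 scaled RPM at Pe day 3, 88.8 ± 22.3 at Pe day 0 and 99.7 ± 23.6 in mock (SD, n = 3 each).

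**Figure D5:**
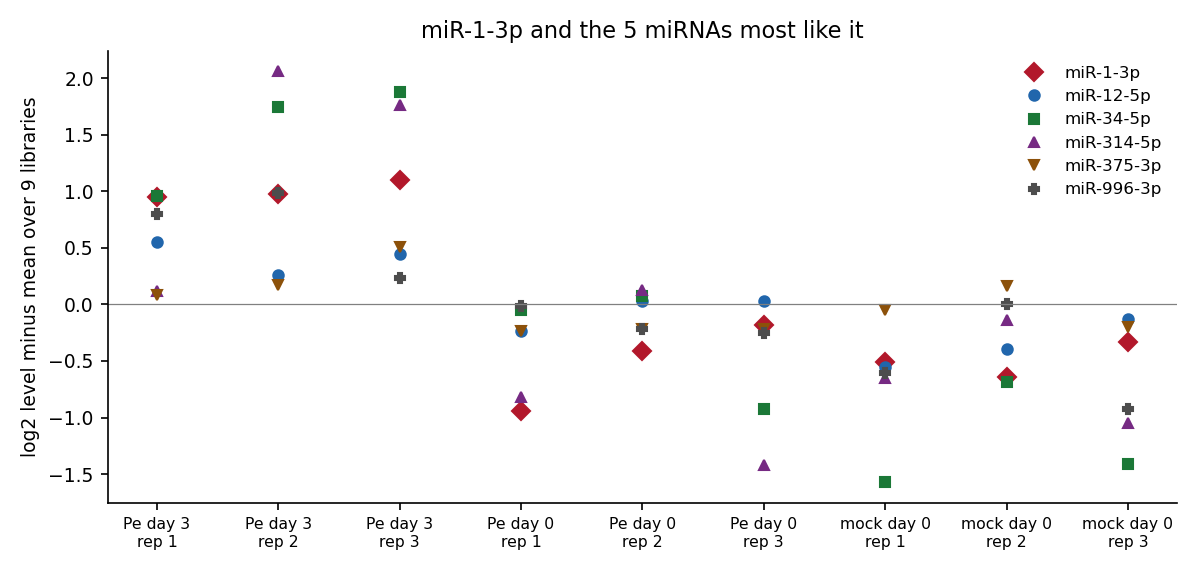
Log2 level of miR-1-3p and of the 5 miRNAs most like it, each minus its mean over the 9 libraries (y axis), in the libraries of Pe day 3, Pe day 0 and mock day 0 in that order (x axis). All 6 stand above their mean in the Pe day 3 libraries, and within groups only miR-12-5p (r = 0.62) moves with miR-1-3p.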

How the data were processed

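Small RNA was measured in 9 midgut libraries, made from total RNA with the Illumina TruSeq small RNA kit per the labels' protocols. The deposited table of levels gives RPM per miRNA, made with miRge as the name of the deposited table states. Aligner, miRNA release and build are not given in the sources used here. A further deposited table holds the authors' own comparisons, as a mean signal, a log2 fold change and its standard error, a test score and p-values. DESeq2 1.22.0 is named for it in the submitters' processing notes, and its contrasts are not named in its header. Its first set of log2 values came within 0.033 of Pe day 0 over mock, and its second within 0.045 of Pe day 3 over mock, in 47 miRNAs of mean signal above 50. Its p-values were not used.

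Reads were inferred from the step of each library's RPM, of which the smallest value is 2 steps and all are whole multiples within 0.001. A library has only 87 to 126 values above 0, too few low ones to accept these reads for a count test, so none was run. Depths, read numbers, intervals and scaling rest on them. For TMM, 30% of the log ratios were trimmed, and 5% by abundance. The filter kept 73 miRNAs that reached 20.1 RPM in 3 or more libraries, which is 10 reads in a library of the median size (497997). limma 3.58.1 in R 4.3.3 (trended, robust) was fitted to log2(scaled RPM + 4.02) of all 9 libraries without a block, with Benjamini-Hochberg adjustment over the 73. The code was tested on simulated data. Alternatives were other scalings, pseudocounts and filters, fits of only the groups compared, a replicate block and leaving out each library. The labels do not say what replicate numbers share. From the data, deviations of same-numbered libraries correlated at 0.24 to 0.43 in all 3 pairs of Pe day 0 and mock, which were taken as paired, but exceeded 0.1 in only 2 of 3 pairs of Pe day 3 and Pe day 0 and 0 of 3 of Pe day 3 and mock.

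miR-1-3p, the lists and the tests were chosen with earlier results of these data known. Names in the text come from the lists, the miRNAs most and least like miR-1-3p (5 and 3), its neighbours in level (2 on each side) and calls against Pe day 0. Coordinates are from the Ensembl annotation. No mature sequence was used here.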

Additional observations from a re-analysis of the deposited data

How the results depend on the processing

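The log2 difference of miR-1-3p between Pe day 3 and Pe day 0 stayed within 1 SD of its replicates in all 18 alternatives, at 1.31 to 1.73. Leaving out a library gave 1.31 to 1.68. Against mock it stayed so in 17 of 18, at 1.32 to 1.53 without a library, and reached 1.78 in RPM as deposited. Between Pe day 0 and mock it lay between -0.36 and 0.20 without a library. The filters and the replicate block cannot move these differences and left them as in the main fit, so they are no check on them. Leaving out a library of the group not compared moves a difference only through the scaling.

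Counts of calls moved more. For Pe day 3 against Pe day 0, RPM as deposited gave 1 list arm (miR-184-3p, higher) and 4 of all, 4 higher and 0 lower. Scaling that left out the 5 most abundant gave 1 other list arm (miR-277-5p, lower) and 4 of all, 3 higher and 1 lower. No filter gave 4 of all. Without a library there were 0 to 2 list arms and 2 to 7 of all. For Pe day 3 against mock, 3 list arms were called in RPM as deposited (3 higher and 0 lower, against 2 and 3 with TMM), 3 when scaling left out the 5 most abundant (0 and 3), 3 in the fit of only these groups and 2 with no filter. Without a library there were 0 to 6 list arms and 4 to 15 of all, lowest without Pe day 3 replicate 2 or mock replicate 1. The split of all calls there was 9 higher and 4 lower with TMM, 5 and 5 with median-of-ratios factors, 10 and 0 in RPM as deposited and 5 and 4 when scaling left out the 5 most abundant. For Pe day 0 against mock, the main counts of 1 list arm and 3 in all became 0 and 0 in RPM as deposited and with no filter, where 16 and 22 had an unadjusted p under 0.05 in limma. They became 2 and 7 with a filter of 100 RPM. The fit of only these groups called 2 list arms, and leaving out a library 0 to 2 list arms and 0 to 8 of all. The cause of these moves was not tested.

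Where replicate numbers pair the libraries, for Pe day 0 against mock, the replicate block left 0 list arms and 1 of all called. Where they were not taken to pair them, the block called 2 list arms (miR-184-3p higher and miR-277-5p lower) and 6 of all for Pe day 3 against Pe day 0, with miR-1-3p at 1.52. In 5 of 9 cases a library correlated best with its own number. Depth limits miR-1-3p to between 32 and 231 reads a library.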
